A study of Homo sapiens with 6 samples.

Results

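Transcripts of 10 nuclear genes that maintain mitochondrial proteins or express the mitochondrial genome were compared between cells with and without doxycycline-induced (DOX-induced) silencing of MUC1. The genes encode the matrix chaperones HSPD1, HSPE1 and HSPA9, the proteases LONP1, CLPP, CLPX and YME1L1, and the genome expression factors TFAM, POLRMT and TUFM. They were chosen by symbol, and all 10 were present among the 28008 genes of the count table.

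Most mitochondrial proteins are made in the cytosol, drawn through the import channels by HSPA9 (mortalin) and folded by the chaperonin that HSPD1 (HSP60) and its lid HSPE1 (HSP10) form. Damaged proteins are degraded by LONP1 and by the CLPX-CLPP protease in the matrix, and by YME1L1 at the inner membrane. The few proteins encoded in mitochondrial DNA (mtDNA) need that genome to be packaged by TFAM, transcribed by POLRMT and translated with the elongation factor TUFM. When these tasks fail, mammalian cells are known to induce chaperones and proteases, and to activate an integrated stress response through the transcription factor ATF4.

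The RNA came from DU-145-DR cells, a docetaxel-selected derivative of the human prostate cancer line DU-145. The cells carried a tetracycline-inducible short hairpin RNA against MUC1 (tet-MUC1shRNA), as the study describes the line, although the treatment label of the DOX-negative samples names only docetaxel resistance. The DOX-negative group was 3 cultures given the DMSO vehicle, and the DOX-positive group was 3 cultures given 500 ng/ml DOX for a week. The hairpin and the drug came together in every DOX-positive culture, and no culture with DOX and a control hairpin was analysed here, so silencing of MUC1 and exposure to DOX cannot be told apart. DOX belongs to the tetracyclines, antibiotics that can also act on mitochondrial ribosomes.

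The 6 libraries held between 15092691 and 23243713 counts, and 3 counts, taken as the floor of detection, were between 0.129 and 0.199 CPM (counts relative to the size of the library, as used below). MUC1, the target of the hairpin, had 387, 484 and 396 counts without DOX and 75, 74 and 66 with DOX. Its fitted log2 fold change of -2.52 had an SE of 0.146 (edgeR adjusted p = 4.47e-11). The epithelial markers EPCAM, CDH1, KRT8, KRT18 and KRT19 were detected in every library and all 5 of 5 rose, with log2 fold changes from 0.81 to 1.43. KLK3 had 0 counts in every library, and PTPRC, CD3E, COL1A2, PDGFRB, PECAM1, VWF and HBB had at most 9. The fibroblast marker COL1A1 was at 3.79 to 5.01 CPM in all 6 libraries (log2 fold change 0.093, edgeR adjusted p = 0.771). CD68, included as a leukocyte marker, was at 91.4 CPM or more in all 6 libraries of this line. It rose from 101 ± 7.94 to 169 ± 10.5 CPM (SD, n = 3 per group), and the part of these marker changes in the results below was not tested. The libraries were bulk RNA from cultures of a single cell line. In such RNA, a change in the number of cells with a transcript and a change in its amount per cell cannot be told apart.

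All 10 genes were kept by the filter against low counts, and 2 of them passed the edgeR quasi-likelihood test at a Benjamini-Hochberg adjusted p under 0.05, read over the 14292 genes tested. HSPA9 rose and HSPE1 fell. The same test called 26.7% of all genes tested, with 13.0% higher and 13.7% lower in DOX-positive cells, so the share of members called (20.0%) was not above that of genes in general. The fitted log2 fold changes (DOX-positive over DOX-negative) of the 10 members ran from -0.53 to 0.28 with a median of -0.120, beside a median of -0.0034 over all genes tested. For 6 members (HSPD1, HSPE1, HSPA9, CLPX, YME1L1 and POLRMT) the CPM ranges of the groups did not overlap, as was the case for 39.8% of all genes tested.

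**Figure D1:**
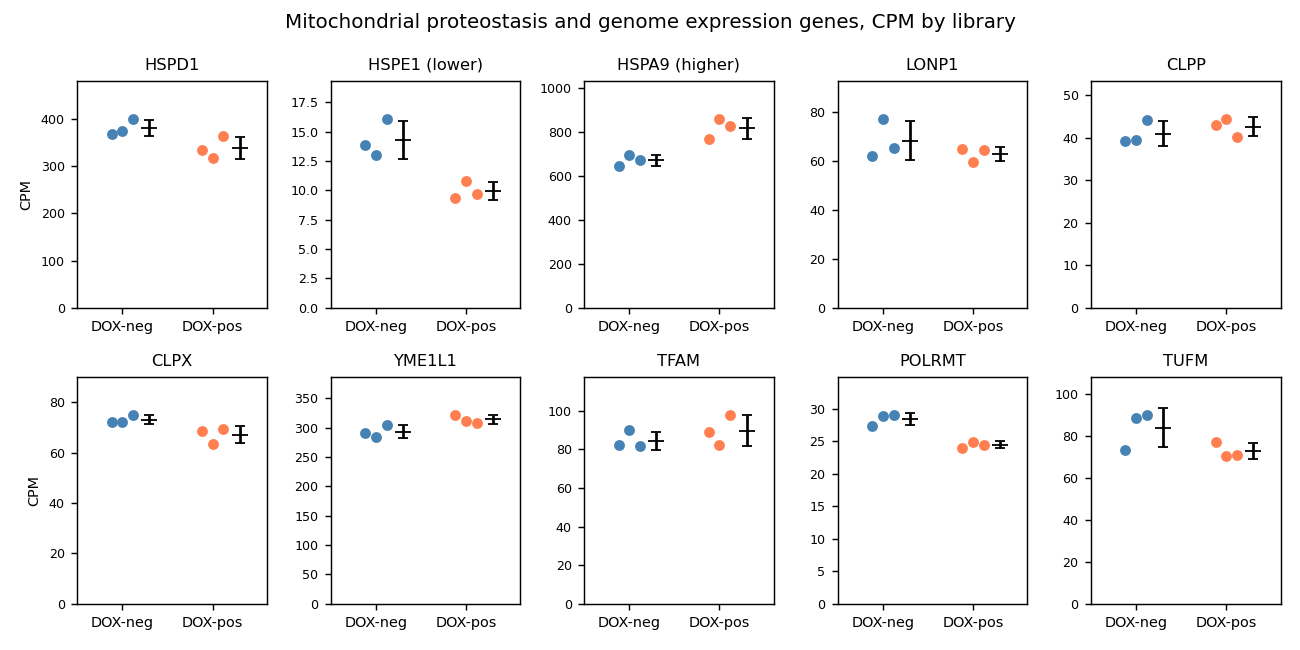
CPM (TMM-scaled, linear axis from 0) of the 10 genes in the 3 DOX-negative and 3 DOX-positive libraries, 1 point per library, with the mean and SD of each group beside them. HSPA9 lies higher and HSPE1 lower in all 3 DOX-positive libraries, while the points of LONP1, CLPP, TFAM and TUFM overlap between groups.

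Of the matrix chaperones, HSPA9 rose, HSPE1 fell and HSPD1 missed the threshold. HSPA9 (GENCODE 29, GRCh38, chr5:138553756-138575724, minus strand), the mitochondrial HSP70 that pulls precursor proteins into the matrix, measured 645, 697 and 675 CPM in DOX-negative replicates 1 to 3 and 768, 862 and 827 CPM in DOX-positive replicates 1 to 3. The lowest DOX-positive library lay above the highest DOX-negative library. The mean went from 672 ± 25.9 to 819 ± 47.5 CPM (SD, n = 3 per group), a rise of 21.8% (log2 fold change 0.28, SE 0.0638, 95% interval 0.15 to 0.42, edgeR adjusted p = 0.00194). This direction held on TMM-scaled counts and turned on log2(TPM + 1) of the deposited TPM, where HSPA9 was at -0.11 while the median of all genes was at -0.32, so that HSPA9 was 0.21 above the median. In the deposited TPM, 5 short noncoding RNAs took 34.4% to 64.4% of each library's total, the least in DOX-negative replicate 2. After these were removed and TPM rescaled, HSPA9 had a log2 fold change of 0.26.

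HSPE1 (chr2:197499994-197503457, plus strand), the co-chaperonin that closes the HSPD1 barrel, measured 13.9, 13.0 and 16.1 CPM without DOX and 9.33, 10.8 and 9.68 CPM with DOX. Each DOX-positive library was below every DOX-negative library. Mean levels were 14.3 ± 1.61 and 9.94 ± 0.777 CPM (SD, n = 3 per group), a log2 fold change of -0.53 (SE 0.129, 95% interval -0.80 to -0.26, edgeR adjusted p = 0.00387). Of the 10 members it was the gene with the largest fitted change, and also the one with the fewest counts (144 to 324 per library).

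HSPD1 (chr2:197486581-197516737, minus strand), the chaperonin subunit itself, measured 367, 374 and 400 CPM without DOX and 334, 317 and 363 CPM with DOX. The groups did not overlap, by a narrow margin of 363 against 367 CPM. The log2 fold change of HSPD1 was -0.17 (SE 0.0647, 95% interval -0.31 to -0.038), and its edgeR adjusted p of 0.0532 missed the threshold. The side of the threshold was not settled by these data, since the adjusted p was 0.0321 without DOX-positive replicate 3 (log2 fold change -0.23) and 0.0480 in DESeq2. With any other single library left out, the edgeR adjusted p was between 0.0576 and 0.180.

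HSPD1 and HSPE1 lie on opposite strands of chromosome 2. In the GENCODE coordinates given above, HSPE1 lies within the span of HSPD1, with 281 exonic bases shared on opposite strands. RefSeq (GRCh38.p14) lists an HSPD1 start at position 197500274 on the minus strand and the HSPE1 start at 197500379 on the plus strand. These starts were 105 bases apart and pointed away from each other. A CACGTG E-box, the palindrome bound by MYC and related factors, lay between them. It is shown here for both genes because 1 copy of the motif precedes both members of the chaperonin, whose fitted changes were -0.17 and -0.53. HSPA9 carried the same motif 14 bases before its start. Each line is 30 bases read 5′ to 3′ on the strand of its gene, and capitals mark the E-box.

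HSPE1 (chr2:197500345-197500374, plus strand): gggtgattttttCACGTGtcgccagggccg
HSPD1 (chr2:197500345-197500374, minus strand): cggccctggcgaCACGTGaaaaaatcaccc
HSPA9 (chr5:138575403-138575432, minus strand): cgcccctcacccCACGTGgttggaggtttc

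The E-box was 17 bases before the HSPE1 start and 83 bases before the HSPD1 start. Promoter entries of 8 of the 10 members were found, with 10 windows of 250 bases before a start. CACGTG was in 4 of these 10 windows, 1 each of HSPA9, HSPD1, HSPE1 and LONP1, compared with 6.34% of all 35116 RefSeq windows of that length, and the windows of HSPD1 and HSPE1 held the same copy. Of these 4 genes, 1 rose, 1 fell and 2 did not pass the test. A second HSPD1 entry, with a start at 197499840, held overlapping matches to the heat shock motifs GAANNTTC and TTCNNGAA. These motifs were found in 5.78% and 6.62% of all windows, and in no window of another member. The HSPE1 window began at 197500129, so the matches, at 197500068 to 197500085, lay upstream of the HSPE1 start but outside its window. The same matches lay downstream of the HSPD1 start at 197500274. They are printed because heat shock elements are what HSP60 genes are known for, with the joined matches in capitals.

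HSPD1, second start (chr2:197500061-197500090, minus strand): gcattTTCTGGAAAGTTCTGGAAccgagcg

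The amino acid response motif TGATGNAA, an ATF4-type site, was found in 3.14% of all windows and in 0 of the 8 members with an entry. Both strands were searched for each motif, a match is a description of the letters only, and CLPP and YME1L1 were not searched.

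Because both chaperonin subunits were counted in the same libraries, their ratio does not depend on library scaling. The log2 ratio of HSPD1 to HSPE1 counts was 4.73, 4.85 and 4.63 without DOX and 5.16, 4.87 and 5.23 with DOX. It was higher in all 3 DOX-positive libraries, although DOX-positive replicate 2 exceeded the highest DOX-negative library by little. The difference in means was 0.35 (exact two-sided permutation p = 0.1, the smallest that 3 against 3 libraries allow, Benjamini-Hochberg 0.15 over 3 ratios). HSPE1 counts carry limits of measurement. The 281 exonic bases shared with HSPD1 on opposite strands are 14.2% of HSPE1, and the strand setting of the counting is not given. The readthrough gene HSPE1-MOB4 and its partner MOB4 were listed at 0 counts in every library. In GENCODE 29, HSPE1-MOB4 nevertheless shares same-strand bases with HSPE1. These are 9.71% of the exonic bases of the HSPE1 gene and 33.7% of those of its HSPE1-202 transcript. That annotation also names 26 pseudogenes after HSPE1 and 17 after HSPD1, and how reads shared with such copies were counted is not given in the sources used here.

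The proteases did not pass the edgeR test or DESeq2, and their unadjusted edgeR p-values were 0.104 or higher. LONP1 (chr19:5691834-5720572, minus strand), the matrix protease that also binds mtDNA, measured 62.2, 77.3 and 65.3 CPM without DOX and 64.9, 59.7 and 64.3 CPM with DOX. The groups overlapped, and DOX-negative replicate 2 stood above the other 5 libraries. The log2 fold change of LONP1 was -0.12 (SE 0.0835, 95% interval -0.29 to 0.055, edgeR adjusted p = 0.322), and -0.018 without DOX-negative replicate 2. LONP1 also held 2 separate E-boxes in its promoter window, 207 and 44 bases before its start, shown as the closest counterpart to those of the chaperones.

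LONP1, distal (chr19:5720341-5720370, minus strand): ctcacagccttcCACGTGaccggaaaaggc
LONP1, proximal (chr19:5720178-5720207, minus strand): cgcgccgggcgtCACGTGcgtttcgcggcg

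CLPP (chr19:6361452-6368910, plus strand), the proteolytic core of the matrix CLPXP protease, measured 39.2, 39.5 and 44.3 CPM without DOX and 43.1, 44.5 and 40.2 CPM with DOX. The groups overlapped over nearly their whole range, and the log2 fold change was 0.056 (SE 0.0842, 95% interval -0.12 to 0.23, edgeR adjusted p = 0.670). CLPX (chr15:65148219-65185342, minus strand), the ATPase that unfolds substrates and feeds them to CLPP, measured 72.0, 72.2 and 75.0 CPM without DOX and 68.6, 63.2 and 69.5 CPM with DOX. All 3 DOX-positive values of CLPX were lower, without overlap, but the log2 fold change of -0.12 missed the threshold (SE 0.0725, 95% interval -0.27 to 0.028, edgeR adjusted p = 0.225). The log2 ratio of CLPX to CLPP counts was 0.84 ± 0.0668 in DOX-negative and 0.66 ± 0.142 in DOX-positive libraries (SD, n = 3 per group, exact two-sided permutation p = 0.2, Benjamini-Hochberg 0.2). DOX-positive replicate 3, at 0.79, lay within the range of the DOX-negative libraries.

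YME1L1 (chr10:27110112-27155266, minus strand), the inner membrane protease that cleaves the fusion factor OPA1, measured 290, 284 and 305 CPM without DOX and 322, 312 and 307 CPM with DOX. The DOX-positive libraries were all above the DOX-negative ones, the closest pair being 307 and 305 CPM. The log2 fold change was 0.099 (SE 0.0600, 95% interval -0.026 to 0.22, edgeR adjusted p = 0.239). The 95% intervals of LONP1, CLPP, CLPX and YME1L1 all lay between -0.29 and 0.23 in log2 units.

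TFAM, POLRMT and TUFM cover packaging, transcription and translation of the mitochondrial genome, and all 3 missed the adjusted threshold in edgeR and DESeq2, with unadjusted edgeR p-values of 0.289, 0.0245 and 0.0198. TFAM (chr10:58385022-58399221, plus strand), which coats mtDNA and starts its transcription, measured 82.1, 89.8 and 81.5 CPM without DOX and 88.8, 82.1 and 97.9 CPM with DOX. The groups overlapped, and the single highest value was in DOX-positive replicate 3. The log2 fold change of TFAM was 0.083 (SE 0.0763, 95% interval -0.075 to 0.24, edgeR adjusted p = 0.463).

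POLRMT (chr19:617224-633604, minus strand), the mitochondrial RNA polymerase, measured 27.4, 28.9 and 29.1 CPM without DOX and 24.0, 24.9 and 24.5 CPM with DOX. The groups were well apart for a gene with an SD of 0.922 CPM without DOX and 0.479 CPM with DOX. Even so, the log2 fold change of -0.22 had an edgeR adjusted p of 0.0785 (SE 0.0906, 95% interval -0.41 to -0.031). The log2 ratio of TFAM to POLRMT counts was 1.58, 1.64 and 1.49 without DOX and 1.89, 1.72 and 2.00 with DOX. All 3 DOX-positive ratios were higher, by 0.30 in the mean (exact two-sided permutation p = 0.1, the smallest possible, Benjamini-Hochberg 0.15).

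TUFM (chr16:28842411-28846408, minus strand), the elongation factor that brings aminoacyl-tRNA to the mitochondrial ribosome, measured 73.3, 88.5 and 90.2 CPM without DOX and 77.1, 70.5 and 71.0 CPM with DOX. DOX-negative replicate 1 lay inside the DOX-positive range, and the remaining 2 DOX-negative libraries were above it. The log2 fold change of TUFM was -0.20 (SE 0.0813, 95% interval -0.37 to -0.036, edgeR adjusted p = 0.0670). Without DOX-negative replicate 1 it was -0.29 with an adjusted p of 0.0183. With any other single library left out it ran from -0.25 to -0.15, with adjusted p from 0.0614 to 0.253.

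**Figure D2:**
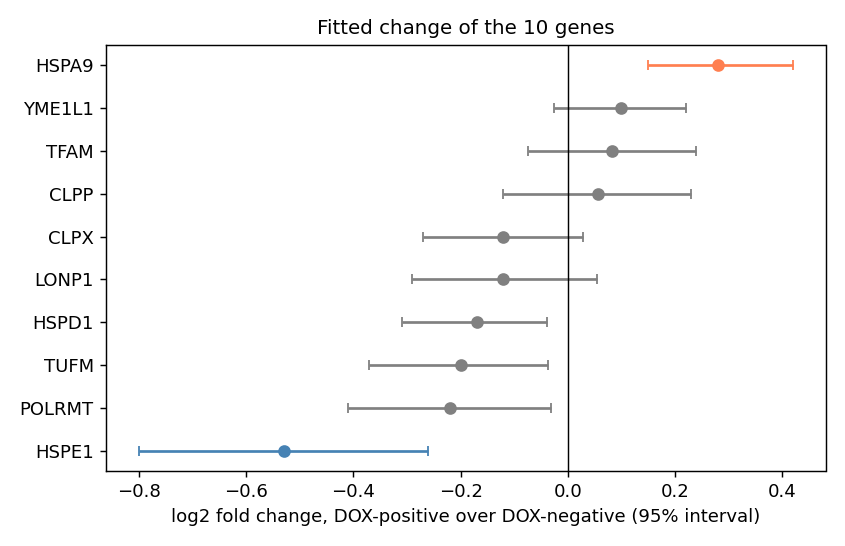
Log2 fold change (x axis, DOX-positive over DOX-negative) of the 10 genes from the edgeR fit, points for the estimates and bars for the 95% intervals, coloured where the adjusted p was under 0.05. HSPA9 is at 0.28 and HSPE1 at -0.53, and HSPD1, TUFM and POLRMT have intervals below 0 without passing the adjusted threshold. HSPA9, YME1L1, TFAM and CLPP, drawn above 0 on TMM-scaled counts, were below 0 on the deposited TPM.

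Per transcript length, the 10 genes kept nearly the same order of levels in all 6 libraries. In deposited TPM, HSPA9 ranked 1 and HSPD1 ranked 2 in each library, with medians of 581 and 436 rescaled TPM over the 6 libraries. YME1L1 ranked 3 throughout at a median of 188 rescaled TPM. CLPP (median 122 rescaled TPM) and TUFM (107) exchanged ranks 4 and 5 in DOX-negative replicate 2 and were not separated by their spread. LONP1, HSPE1, TFAM and CLPX, with medians between 40.0 and 52.2 rescaled TPM, shared ranks 6 to 9, and HSPE1 went from rank 6 or 7 in the DOX-negative libraries to rank 7 or 9 in the DOX-positive ones. POLRMT was last in each library at a median of 19.1 rescaled TPM. Per length HSPE1 was thus far below its partner HSPD1, at 34.8 to 60.2 against 375 to 465 rescaled TPM, within the limits on counting given above.

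The genes whose log2 CPM profile over the 6 libraries, centred on its mean, was closest to that of HSPA9 were THAP12 and RIOK3. Their root mean square differences from HSPA9 were 0.0200 and 0.0214 log2 units among 6098 genes compared. For HSPE1 they were TMEM65, TMEM33 and PIGX (0.0626, 0.0691 and 0.0735 log2 units among 6099 genes). These were picked for their likeness, so their levels are not tested.

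The rest of the pathway was read from 8 companion lists with 142 genes tested, of which 36 (25.4%) were called, 16 higher and 20 lower, with a median log2 fold change of -0.005. This share was close to the 26.7% of all genes. The lists differed among themselves in counts. Their directions below are on TMM-scaled counts. On the deposited TPM, whose median over all genes was at -0.32, of the companion genes called higher LACTB, PITRM1, AFG3L2, MGME1, GFM1, FASTK, PTCD2, NSUN4 and DDIT4 went below 0 at one or both pseudocounts.

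**Figure D3:**
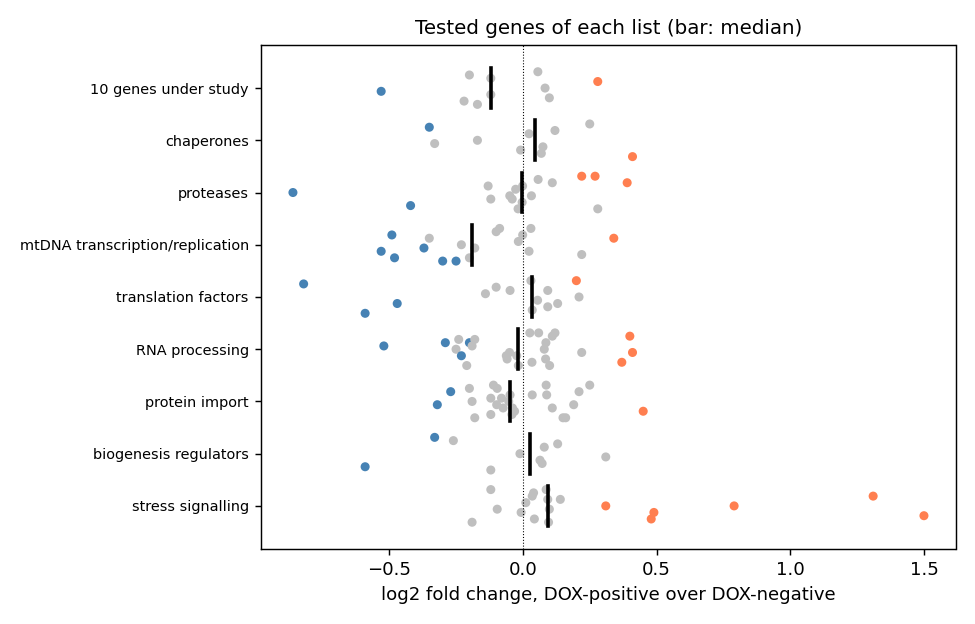
Log2 fold change (DOX-positive over DOX-negative, TMM-scaled counts) of each gene tested in the members and the 8 companion lists, 1 point per gene, coloured where the edgeR adjusted p was under 0.05, with a vertical bar at each median. In the mtDNA list the called points lie mostly below 0 (6 of 7), and in the stress list all 6 called points lie above 0, 2 of them beyond 1. Of all genes tested, 13.0% were called higher and 13.7% lower.

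Among other mitochondrial chaperones and import motor parts, 2 of 10 genes tested were called, with a list median of 0.046. TIMM44, which anchors HSPA9 to the import channel, fell from 48.2 ± 1.85 to 37.8 ± 4.50 CPM (SD, n = 3 per group, log2 fold change -0.35, SE 0.0900, edgeR adjusted p = 0.00599). DNAJC19, a J-protein of the same motor, rose (log2 fold change 0.41, SE 0.111, edgeR adjusted p = 0.00827), and 9 pseudogenes are named after it.

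Of 17 further proteases and their regulators, 5 were called (29.4%), 3 higher and 2 lower, with a median of -0.003. Without DOX-negative replicate 1 or DOX-positive replicate 3, 3 were called. OMA1, the stress-activated inner membrane protease that cleaves OPA1 beside YME1L1, measured 22.4, 21.8 and 25.2 CPM without DOX and 11.9, 15.6 and 10.6 CPM with DOX. Every DOX-positive library of OMA1 was far below every DOX-negative one, a fall by 45.0% (log2 fold change -0.86, SE 0.127, edgeR adjusted p = 2.58e-05). LACTB, a filament-forming protein of the intermembrane space, rose from 51.3 ± 2.75 to 67.3 ± 1.88 CPM (SD, n = 3 per group, log2 fold change 0.39, SE 0.0755, edgeR adjusted p = 0.000508). PITRM1, which degrades cleaved targeting peptides, had a rise of 0.27 in log2 units (SE 0.0648, edgeR adjusted p = 0.00312). AFG3L2, a subunit of the matrix-facing m-AAA protease, rose by 0.22 (SE 0.0734, edgeR adjusted p = 0.0291), and lost its call without DOX-negative replicate 1 (adjusted p = 0.213), without DOX-positive replicate 3 (0.0971) or with library totals (0.0665). MIPEP, which trims imported precursors, was called lower at -0.42 (SE 0.154, edgeR adjusted p = 0.0483), a call kept in 4 of 15 alternative analyses.

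The list of mtDNA maintenance and transcription factors had the highest share of calls among the 8 lists. Over all genes tested 26.7% were called, 13.0% higher and 13.7% lower. Of the 18 genes tested in this list 7 were called (38.9%), 1 higher and 6 lower, with a median of -0.190. Without DOX-negative replicate 2, 4 were called. LIG3, the ligase that seals mtDNA and also acts in nuclear repair, fell from 26.7 ± 0.853 to 18.6 ± 2.92 CPM (SD, n = 3 per group, log2 fold change -0.53, SE 0.111, edgeR adjusted p = 0.00110). In GENCODE 29, 30.5% of its exonic bases lie opposite other genes.

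TWNK, the replicative mtDNA helicase, fell from 25.1 ± 4.16 to 18.0 ± 2.29 CPM (SD, n = 3 per group, log2 fold change -0.48, SE 0.122, edgeR adjusted p = 0.00517), and lost its call without DOX-negative replicate 2 (adjusted p = 0.0519). MTERF3, a factor that binds the mtDNA control region and acts in ribosome assembly, fell by 0.49 log2 units (SE 0.109, edgeR adjusted p = 0.00179), from 36.3 ± 6.22 to 25.8 ± 1.18 CPM (SD, n = 3 per group). MTERF1, which binds at the end of the ribosomal RNA genes and was named after its value was seen, fell by 0.30 (SE 0.0717, edgeR adjusted p = 0.00367). These genes were lower in all 3 DOX-positive libraries than in any DOX-negative one.

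The topoisomerase TOP1MT was called at -0.37 (edgeR adjusted p = 0.0313) with overlapping groups, and lost the call when replicate 1 (adjusted p = 0.0926) or 2 (0.197) of the DOX-negative group or replicate 1 (0.103) of the DOX-positive group was left out. TFB2M, which melts the promoter for POLRMT, was called at -0.25 (edgeR adjusted p = 0.0358), and lost its call without any 1 of the DOX-negative libraries (adjusted p from 0.0537 to 0.129) and without DOX-positive replicate 1 (0.163) or 2 (0.0632). MGME1, an exonuclease of mtDNA replication, was the exception that rose, from 46.2 ± 2.90 to 58.7 ± 7.18 CPM (SD, n = 3 per group, log2 fold change 0.34, SE 0.0897, edgeR adjusted p = 0.00671). MGME1 lost its call without DOX-negative replicate 1 (adjusted p = 0.0514) or DOX-positive replicate 3 (0.0541). TFB2M and the replicative polymerase POLG were also named after their values were seen. POLG was at -0.23 with overlapping groups (95% interval -0.43 to -0.032, edgeR adjusted p = 0.0793).

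In mitochondrial translation, 4 of 14 genes tested were called, 1 higher and 3 lower, with a median of 0.032. MTIF3, an initiation factor of the mitochondrial ribosome, measured 22.6, 19.3 and 20.0 CPM without DOX and 10.8, 12.8 and 11.6 CPM with DOX. The values did not come near each other, and MTIF3 fell by 43.3% (log2 fold change -0.82, SE 0.116, edgeR adjusted p = 1.57e-05). Of the MTIF3 exonic bases 11.3% lie opposite another gene. GFM2, which recycles the ribosome, fell from 98.2 ± 4.97 to 70.8 ± 1.56 CPM (SD, n = 3 per group, log2 fold change -0.47, SE 0.0702, edgeR adjusted p = 2.99e-05), with 18.8% of its exonic bases opposite other genes.

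Its paralog GFM1, which moves the ribosome along in concert with TUFM, rose from 148 ± 1.62 to 170 ± 8.47 CPM (SD, n = 3 per group, log2 fold change 0.20, SE 0.0634, edgeR adjusted p = 0.0205), and lost its call without DOX-negative replicate 1 (adjusted p = 0.0757) or DOX-positive replicate 3 (0.123). METAP1D, which removes the initiator methionine, fell by 0.59 (SE 0.152, edgeR adjusted p = 0.00599) at 8.63 ± 0.609 and 5.74 ± 0.491 CPM (SD, n = 3 per group).

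**Figure D4:**
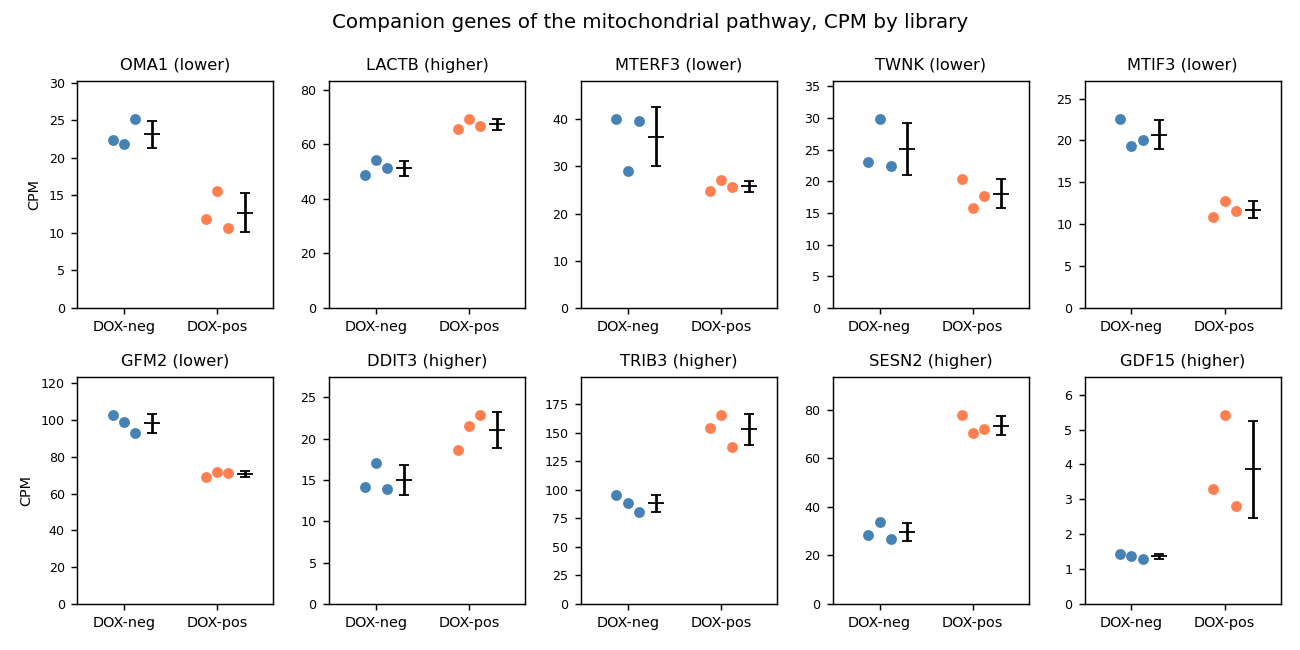
CPM (TMM-scaled, linear axes from 0) of 10 companion genes in the 3 DOX-negative and 3 DOX-positive libraries, 1 point per library, with the mean and SD of each group beside them. OMA1, MTERF3, TWNK, MTIF3 and GFM2 are lower and LACTB, DDIT3, TRIB3, SESN2 and GDF15 higher in all 3 DOX-positive libraries on these counts, while LACTB was just below 0 on the deposited TPM.

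RNA processing genes had 7 calls among 27 tested (25.9%), 3 higher and 4 lower, with a median of -0.017. Without DOX-negative replicate 3 or DOX-positive replicate 2, 4 were called, and with library totals 11. The tRNA-modifying enzyme GTPBP3 fell by 0.52 (SE 0.0988, edgeR adjusted p = 0.000434). Components of tRNA end processing TRMT10C, PRORP (listed as KIAA0391) and ELAC2 were also called lower, at -0.29, -0.23 and -0.20. HSD17B10, a further RNA processing gene of this list named after its value was seen, was not called, at 0.026 (edgeR adjusted p = 0.884). TRMT10C lost its call without DOX-negative replicate 1 (adjusted p = 0.183), DOX-positive replicate 1 (0.0744) or DOX-positive replicate 2 (0.0736). The ELAC2 call was lost without DOX-negative replicate 3 (-0.13, adjusted p = 0.206) or any single DOX-positive library (0.0520 to 0.0996), and the KIAA0391 call was lost without DOX-negative replicate 1 (adjusted p = 0.0652) or 3 (0.0649). FASTK, PTCD2 and NSUN4 rose by 0.41, 0.40 and 0.37. FASTK was at 0.27 with an adjusted p of 0.0503 without DOX-positive replicate 1, and PTCD2 lost its call when replicate 1 (0.0779) or 3 (0.0696) of the DOX-negative group was left out, or replicate 2 (0.0877) of the DOX-positive group.

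Import components had the lowest share of calls, 3 of 27 (11.1%), with a median of -0.048. The outer membrane receptor TOMM70 fell from 108 ± 5.49 to 86.6 ± 5.87 CPM (SD, n = 3 per group, log2 fold change -0.32, SE 0.0721, edgeR adjusted p = 0.00203). TIMM10, a small carrier chaperone, was called at -0.27 (edgeR adjusted p = 0.0452), with an adjusted p of 0.0686 in DESeq2 and of 0.0620 to 0.225 in the 5 leave-one-out fits without DOX-negative replicate 1 or 3 or a DOX-positive library. TOMM34, a cytosolic co-chaperone of import, rose from 29.8 ± 1.19 to 40.8 ± 2.04 CPM (SD, n = 3 per group, log2 fold change 0.45, SE 0.0853, edgeR adjusted p = 0.000418).

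Among regulators of mitochondrial biogenesis, 2 of 10 were called and both fell, with a median of 0.026. The coactivator PPARGC1B fell from 28.1 ± 1.85 to 18.7 ± 1.50 CPM (SD, n = 3 per group, log2 fold change -0.59, SE 0.101, edgeR adjusted p = 0.000149). CREB1 fell by 0.33 (SE 0.0745, edgeR adjusted p = 0.00183). The related coactivator PPARGC1A had at most 1 count in any library and was not tested.

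The list of genes known from the mitochondrial and integrated stress responses had 6 calls among 19 tested (31.6%), all 6 higher, with a median of 0.093. Over all genes tested, 26.7% were called and 13.0% were called higher. SESN2, a leucine sensor that restrains mTORC1, measured 28.4, 33.8 and 26.8 CPM without DOX and 78.0, 70.3 and 72.1 CPM with DOX. All DOX-positive values of SESN2 were more than double any DOX-negative value, and the log2 fold change was 1.31 (SE 0.0898, edgeR adjusted p = 5.78e-10). TRIB3, a pseudokinase induced by ATF4 and DDIT3, measured 95.7, 88.5 and 80.7 CPM without DOX and 154, 166 and 138 CPM with DOX. The groups were clearly apart, and the log2 fold change was 0.79 (SE 0.0775, edgeR adjusted p = 1.05e-07).

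GDF15, a secreted stress cytokine, was a low gene, with 26, 27 and 26 counts without DOX and 76, 104 and 42 with it. It rose by 1.50 log2 units (SE 0.281, edgeR adjusted p = 0.000376), with a wide spread among the DOX-positive libraries. PCK2, the mitochondrial phosphoenolpyruvate carboxykinase, rose from 34.2 ± 4.36 to 48.0 ± 2.78 CPM (SD, n = 3 per group, log2 fold change 0.49, SE 0.0937, edgeR adjusted p = 0.000476). The other 2 calls, named after their values were seen, were the stress factor DDIT3 (CHOP) and the mTORC1 inhibitor DDIT4. DDIT3 measured 14.1, 17.1 and 13.9 CPM without DOX and 18.6, 21.5 and 22.9 CPM with DOX. Its groups did not overlap (log2 fold change 0.48, SE 0.117, edgeR adjusted p = 0.00409), and 31.6% of its exonic bases lie opposite other genes. DDIT4 rose by 0.31 (SE 0.0946, edgeR adjusted p = 0.0176) and lost its call without DOX-negative replicate 3 (adjusted p = 0.127) or DOX-positive replicate 1 (0.0555).

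ATF4, ATF5, ASNS and CHAC1, also named after their values were seen, did not pass. ATF4 measured 333, 345 and 337 CPM without DOX and 396, 366 and 355 CPM with DOX. All 3 DOX-positive values were higher, and the log2 fold change was 0.14 (SE 0.0614, 95% interval 0.011 to 0.27, edgeR adjusted p = 0.101). ATF5, linked to the mammalian mitochondrial unfolded protein response, was at -0.19 (95% interval -0.43 to 0.051, edgeR adjusted p = 0.244). The ATF4 targets ASNS and CHAC1 were at -0.0066 (95% interval -0.40 to 0.38, edgeR adjusted p = 0.985) and 0.035 (95% interval -0.23 to 0.30, edgeR adjusted p = 0.874). Transcripts of the mitochondrial genome's own protein-coding genes were not analysed here, as the tables used held 0 such genes by symbol.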

How the data were processed

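RNA was extracted by the authors from triplicate cultures and sequenced as poly(A)-selected stranded libraries (TruSeq Stranded mRNA). Groups and replicate numbers came from sample titles, and table columns were matched by DOX state and number (0 columns without a sample), because the columns abbreviate the resistant line as DU145TR and the titles as DU145DR. The authors deposited whole-number read counts per gene and TPM values. The submitters' processing notes name STAR, DESeq2 and GRCh38. The counting rule, strand setting and annotation are not given in the sources used here.

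Counts were fitted in R 4.3.3 with edgeR 4.0.16 (filterByExpr, TMM factors 0.986 to 1.03, glmQLFit and glmQLFTest, group only, two-sided), with Benjamini-Hochberg adjustment over all 14292 genes tested and a threshold of 0.05. SE was the size of the log2 fold change over the root of F, and CPM used TMM-scaled totals. P-values measure the spread between these cultures, and intervals of counts and the floor of 3 counts cover counting error only. Each library counted as 1 replicate, since libraries of the same group differed beyond counting noise (chi-square per degree of freedom 3.78 to 20.2).

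The members and the companion lists were chosen with earlier results of these data known. Of 150 companion symbols 148 were in the count table. The symbols PHB, KIAA0391 and KIAA0141 were matched through RefSeq synonyms. Named genes were the 10 members, MUC1, up to 4 genes called higher and up to 4 called lower with the largest fold change in each companion list, and for each called member the 3 genes with an average logCPM of at least 5 and the closest profile. Genes named outside this rule were MTERF1, TFB2M, POLG, HSD17B10, DDIT3, DDIT4, ATF4, ATF5, ASNS and CHAC1. Some genes are not reported here. Gene overlaps came from GENCODE 29 and promoter windows from RefSeq (GRCh38.p14).

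Alternatives were DESeq2 1.42.0, RLE factors, library totals, a replicate block, no filter, a minimum of 10 counts in each library, limma 3.58.1 on log2(TPM + 1), on log2(TPM + 0.1) and on TPM rescaled without 5 short noncoding RNAs, a threshold of 0.01, and each library left out. Fold changes on a log2(TPM + pseudocount) scale understate the change of low genes. The fit was tested on simulated data.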

Additional observations from a re-analysis of the deposited data

How the results depend on the processing

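HSPA9 and HSPE1 passed the threshold in 13 of 15 alternative analyses each, HSPD1 in 6, TUFM in 2, POLRMT in 1 and the other 5 members in 0. With library totals 5 members were called (HSPA9, HSPE1, HSPD1, POLRMT and TUFM), and with both deposited TPM settings 0. HSPE1 had adjusted p-values of 0.0698 on log2(TPM + 1) and 0.0682 on log2(TPM + 0.1). Those settings moved the median of all genes to -0.32 and -0.39, called 443 and 408 genes (6.77% and 7.11% of them higher) and 2 companion genes each, against 3816 and 36 from the counts. A threshold of 0.01 called 2307 genes. With library totals 39.3% of calls were higher. With 1 library left out, 2784 to 3645 genes, 2 to 3 members and 28 to 34 companion genes were called. Same-numbered libraries did not deviate together (correlations -0.010, -0.082 and -0.019), and a replicate block called 3158 genes, 2 members and 28 companion genes. Under the block the calls of AFG3L2 (adjusted p = 0.0515), MIPEP (0.0702), TOP1MT (0.0536), GFM1 (0.0573), TRMT10C (0.0531), TFB2M (0.0608), ELAC2 (0.0817) and TIMM10 (0.0644) were lost.

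Directions that turned, on log2(TPM + 1) and log2(TPM + 0.1) in that order, were HSPA9 (-0.11 and -0.11), CLPP (-0.33 and -0.34), YME1L1 (-0.29 and -0.29), TFAM (-0.30 and -0.31), LACTB (-0.0042 and -0.0022), PITRM1 (-0.12 and -0.12), AFG3L2 (-0.16 and -0.17), MGME1 (-0.054 and -0.055), GFM1 (-0.19 and -0.19), FASTK (-0.0049 and -0.0038), NSUN4 (-0.026 and -0.024), DDIT4 (-0.074 and -0.073), ATF4 (-0.26 and -0.26), CHAC1 (-0.34 and -0.35) and, at the larger pseudocount, PTCD2 (-0.0038). CHAC1 was also at -0.0027 with library totals, and with 1 library left out CHAC1 ran from -0.097 to 0.21 and ASNS from -0.18 to 0.099. The share of short noncoding RNAs in TPM differed between libraries, and rescaling without them returned HSPA9 to 0.26 and HSPE1 to -0.54, while AFG3L2 (adjusted p = 0.0819), TOP1MT (0.0800), GFM1 (0.0549), PTCD2 (0.0575) and DDIT4 (0.0877) lost their calls. The ratios of member pairs were the same on deposited TPM (0.35, -0.18 and 0.30). OMA1 and MTIF3 passed in 15 of 15 alternatives.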
